A study of Mus musculus with 19 samples.

Results

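The enzymes that write and remove DNA methylation were examined in single mouse blastocysts with and without *Upf2*. The set was chosen by name and holds 8 genes of the 41388 in the count table: *Dnmt1*, *Dnmt3a*, *Dnmt3b*, *Dnmt3l*, *Uhrf1*, *Tet1*, *Tet2* and *Tet3*. All 8 passed the filter of at least 10 counts in at least 1 embryo, as did 17137 genes in all. RNA of 19 single whole blastocysts at E3.25 was sequenced, 1 library per embryo: 8 *Upf2*-null embryos (Upf2-/-, lacking exons 2 and 3) and 11 control littermates (Upf2+/+). All came from crosses of Upf2+/- parents on a C57BL/6 background, so the mothers of both genotypes carried 1 functional *Upf2* allele. The allele was made by crossing floxed mice to mice with Cre under the early-embryo *E2a* promoter, and a truncated protein without NMD activity is still made from it. Embryos were cultured in M16 medium from the zygote and collected 90 to 94 h after hCG. Every library averages trophectoderm, epiblast and primitive endoderm precursors, so fewer cells of a type and less RNA per cell cannot be told apart.

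NMD (nonsense-mediated RNA decay) degrades mRNAs with a stop codon in an aberrant context, and UPF2 is a core factor of it. DNA methylation at CpG dinucleotides is set by DNMT3A and DNMT3B, with DNMT3L as a cofactor that has no catalytic activity of its own. It is copied after replication by DNMT1, which UHRF1 brings to hemimethylated DNA, and oxidised by the TET dioxygenases as a step towards its removal. The mammalian genome loses most of its methylation between fertilisation and the blastocyst and regains it around implantation, so the blastocyst lies between both processes.

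Total counts per embryo ran from 4068350 to 5993745 in *Upf2*-null embryos and from 4056072 to 5854659 in controls. Control embryo 5 had the fewest genes detected, at 14522, against 15547 to 17084 in the other 18 embryos. Levels are given in CPM, counts scaled to a fixed library total after TMM normalization. *Upf2* was counted over the whole gene, most of which the deletion leaves in place, so its level of 90.9 ± 21.3 CPM in *Upf2*-null embryos (SD, n = 8), against 57.8 ± 16.5 CPM among the controls (SD, n = 11), is no check of the genotype. Markers of all 3 blastocyst lineages were detected. *Nanog*, an epiblast factor, had a median of 174 CPM in *Upf2*-null embryos, against 240 CPM in controls (edgeR, adjusted p = 0.150; DESeq2, adjusted p = 0.0277). *Gata6*, of the primitive endoderm, had medians of 151 and 134 CPM in *Upf2*-null and control embryos, and *Cdx2*, of the trophectoderm, had 15.9 and 18.6 CPM. The log2 fold change of *Cdx2*, *Upf2*-null over control, was 0.04 ± 0.46 (SE; edgeR, adjusted p = 0.994). Of 13 epiblast markers 3 were above and 10 below 0 (median -0.47, against -0.02 over all genes). The 15 primitive endoderm markers tested had 11 above and 4 below (median 0.12), and 14 trophectoderm markers 10 and 4 (median 0.08). Of 10 cumulus and granulosa cell markers, only *Star* was tested. It had 0 to 11.9 CPM in *Upf2*-null embryos, against 0 to 3.46 CPM in controls (edgeR, adjusted p = 0.454). *Fshr* had 0 counts in all embryos.

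The start regions of 3 members are shown because they carry the highest levels of the de novo class (*Dnmt3l* and *Dnmt3b*) and of the TET class (*Tet2*), while their CpG content differs widely. Each is the 120 bases before a RefSeq transcription start (GRCm38.p6), 5′ to 3′ on the gene's strand, with CpG dinucleotides (CG) in capitals. Where RefSeq gives several starts, the one with the most starts of the deposited transcript models within 100 bases was taken. *Dnmt3l* is shown from chr10:78055215-78055334 (plus strand), *Dnmt3b* from chr2:153649329-153649448 (plus strand) and *Tet2* from chr3:133544391-133544510 (minus strand). The *Dnmt3l* start shown is internal: annotated models that begin there have 5 or 6 exons. Annotated *Dnmt3l* models of 14 and 13 exons begin upstream, at 78042287 and 78049842. Which start gave the *Dnmt3l* counts was not tested.
Dnmt3l: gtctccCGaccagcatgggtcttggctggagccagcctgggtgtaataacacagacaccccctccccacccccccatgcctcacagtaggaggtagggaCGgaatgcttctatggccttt
Dnmt3b: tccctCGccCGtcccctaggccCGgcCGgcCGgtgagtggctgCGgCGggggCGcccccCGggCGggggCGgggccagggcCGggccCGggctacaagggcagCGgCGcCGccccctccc
Tet2: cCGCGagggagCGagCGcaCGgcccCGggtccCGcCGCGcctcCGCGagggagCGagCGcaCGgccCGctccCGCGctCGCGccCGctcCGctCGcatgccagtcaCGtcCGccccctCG

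These stretches hold 2 CpG in *Dnmt3l*, 16 in *Dnmt3b* and 25 in *Tet2*. Over the 300-base promoter (250 bases before the start and 50 after it) *Tet2* had 57 CpG, a number that 0.152% of 32851 mouse promoters reached. *Dnmt3b* had 30, a number that 11.7% of promoters reached, and *Dnmt3l*, at the internal start shown, had 3, which 76.7% of promoters reached. The same count was 46 in *Dnmt3a*, 33 in *Dnmt1*, 22 in *Tet3*, 17 in *Tet1* and 12 in *Uhrf1*, against a median of 7 over all promoters. These are counts of letters in a window, and no methylation was measured.

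No member differed between genotypes past the threshold. In the quasi-likelihood fit of edgeR, with p-values adjusted over all genes by Benjamini-Hochberg, 0 of 8 members had an adjusted p under 0.1, beside 33 of 17137 genes (0.193%), of which 30 were higher in *Upf2*-null embryos (0.175%) and 3 lower (0.0175%). At an unadjusted p under 0.05 the count was also 0 of 8, against 12.5% of all genes. DESeq2 called 0 of 8 (1.2% of all genes it adjusted) and limma voom with quality weights 0 of 8 (0.665%). With shares of called genes this small, 0 of 8 is near the background. The lowest unadjusted p of a member, that of *Uhrf1*, ranked 5148 among 17137 genes. The ranges of both genotypes overlapped for all 8 members, but the share of all genes with overlapping ranges was not taken, so this count has no background. Approximate 95% intervals of the log2 fold change lay within a 2-fold change in either direction for 6 members and reached beyond it for 2, *Uhrf1* and *Tet3*.

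**Figure D1:**
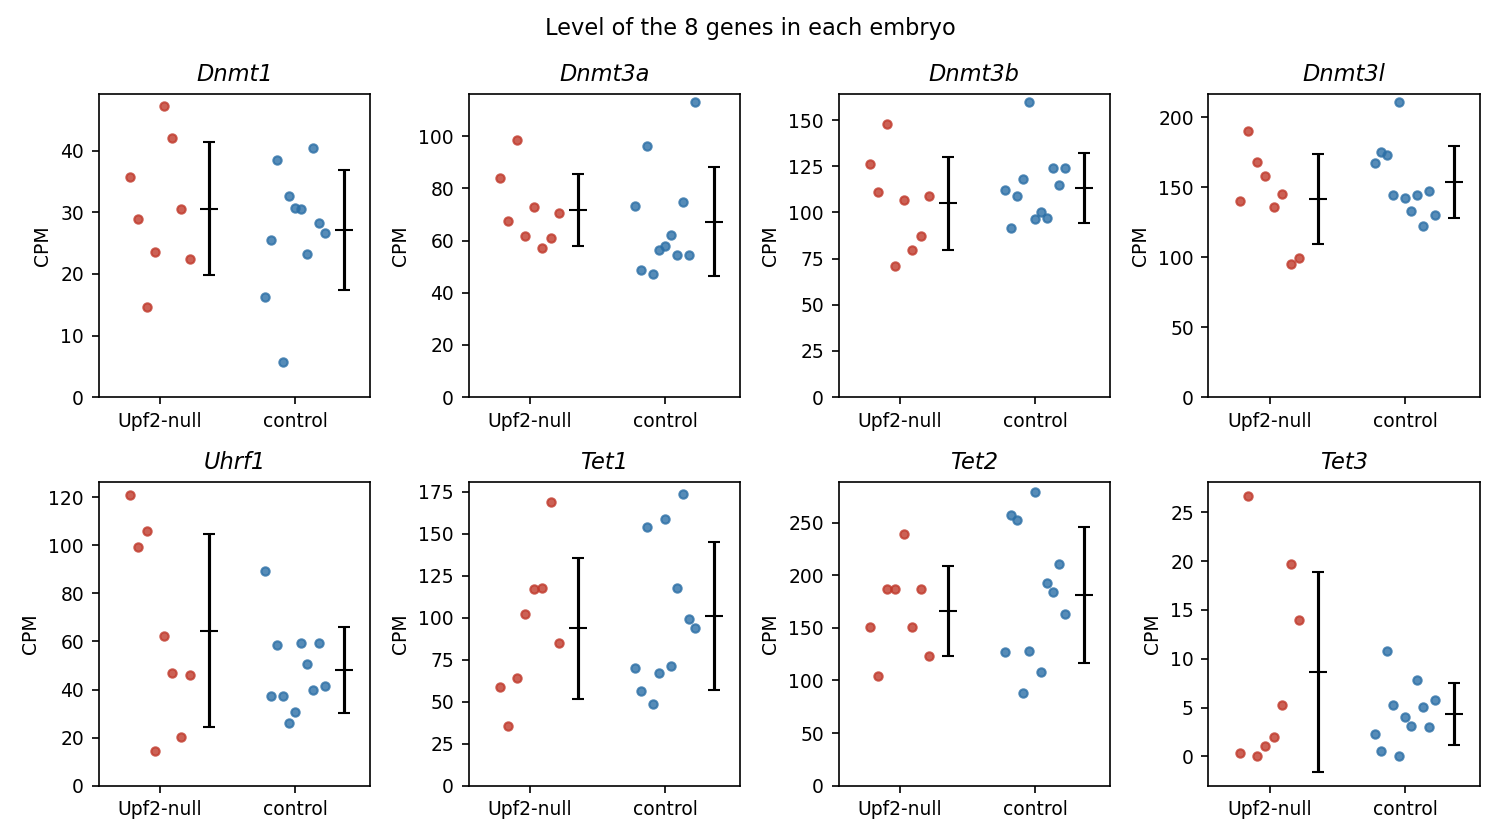
TMM-normalized CPM of each gene in the 8 *Upf2*-null embryos (red, left) and the 11 control embryos (blue, right), with the mean and SD as black bars beside the points. *Uhrf1* spans 14.6 to 121 CPM in *Upf2*-null embryos, against 25.9 to 89.3 CPM in controls, and the ranges overlap in every panel.

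Of the maintenance pair, *Dnmt1* (ENSMUSG00000004099, chromosome 9, 20907209 to 20959888 on GRCm38) encodes the methyltransferase that copies existing methylation. It ran from 14.6 to 47.2 CPM (median 29.7) in *Upf2*-null embryos, against 5.71 to 40.5 CPM (median 28.3) in controls, with control embryo 4 alone below all *Upf2*-null embryos and 2 *Upf2*-null embryos above all controls. These values rest on 84 to 240 counts in *Upf2*-null embryos and 27 to 206 in controls. The log2 fold change was 0.17 ± 0.29 (SE; interval -0.44 to 0.79; edgeR, adjusted p = 0.915). The spread among embryos thus covered the difference between the genotypes.

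*Uhrf1* (ENSMUSG00000001228, chromosome 17, 56303321 to 56323486), the hemimethylated-DNA reader that recruits DNMT1, had the widest range in *Upf2*-null embryos, as a ratio of highest to lowest, among the members with no zero count. Its lowest, median and highest levels were 14.6, 54.6 and 121 CPM in *Upf2*-null embryos, against 25.9, 41.3 and 89.3 CPM in controls. *Upf2*-null embryos 1, 2 and 3, at 121, 99.2 and 106 CPM, lay above every control, and *Upf2*-null embryos 4 and 7, at 14.6 and 20.1 CPM, lay below every control. The coefficient of variation was 62.2% in *Upf2*-null embryos and 37.4% in controls, and the difference in spread was not tested. The log2 fold change was 0.42 ± 0.34 (SE; interval -0.28 to 1.13; edgeR, adjusted p = 0.725), and 0.09 ± 0.32 by limma voom with quality weights (adjusted p = 0.937). The ratio of *Uhrf1* to *Dnmt1* counts ran from 0.62 to 7.23 in *Upf2*-null embryos and from 0.791 to 6.52 in controls, a wide spread in both genotypes.

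Among the de novo genes, *Dnmt3a* (ENSMUSG00000020661, chromosome 12, 3806007 to 3914443) encodes a catalytic methyltransferase. It had 57 to 98.5 CPM (median 68.9) in *Upf2*-null embryos, against 47.3 to 113 CPM (median 57.9) in controls. Of the *Upf2*-null embryos 7 of 8 lay above the control median, yet the highest embryo was a control, and the log2 fold change was 0.09 ± 0.17 (SE; interval -0.27 to 0.46; edgeR, adjusted p = 0.930). Its partner enzyme *Dnmt3b* (ENSMUSG00000027478, chromosome 2, 153649450 to 153687730) had 71.2 to 148 CPM (median 108) in *Upf2*-null embryos, against 91.6 to 160 CPM (median 112) in controls. Only 2 of 8 *Upf2*-null embryos lay above the control median and 3 lay below every control, with a log2 fold change of -0.11 ± 0.14 (SE; interval -0.40 to 0.17; edgeR, adjusted p = 0.867). *Dnmt3b* and *Upf2* are on the same chromosome.

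*Dnmt3l* (ENSMUSG00000000730, chromosome 10, 78041947 to 78063622), the cofactor, had 95.2 to 190 CPM (median 143) in *Upf2*-null embryos, against 122 to 211 CPM (median 144) in controls. The medians were close, and *Upf2*-null embryos 7 and 8, at 95.2 and 99.2 CPM, lay below every control. The log2 fold change was -0.12 ± 0.13 (SE; interval -0.39 to 0.16; edgeR, adjusted p = 0.846). *Dnmt3l* and *Dnmt3b* had the narrowest spread of the set in the fit, with biological coefficients of variation of 21.2% and 22.1%, against 119% for *Tet3*.

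*Tet1* (ENSMUSG00000047146, chromosome 10, 62804570 to 62908996) and *Tet2* (ENSMUSG00000040943, chromosome 3, 133463679 to 133545139) encode 5-methylcytosine dioxygenases. *Tet1* ran from 35.6 to 169 CPM (median 93.4) in *Upf2*-null embryos, against 48.4 to 174 CPM (median 94) in controls. Its log2 fold change was -0.11 ± 0.28 (SE; interval -0.71 to 0.49; edgeR, adjusted p = 0.954), and 0.01 without *Upf2*-null embryo 2, the lowest. *Tet2* had 104 to 239 CPM (median 169) in *Upf2*-null embryos, against 87.7 to 279 CPM (median 184) in controls. The 3 highest embryos were controls and so was the lowest, and the log2 fold change was -0.12 ± 0.21 (SE; interval -0.56 to 0.31; edgeR, adjusted p = 0.914). For both genes the embryos of each genotype spread more widely than the genotypes differed.

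*Tet3* (ENSMUSG00000034832, chromosome 6, 83362373 to 83459084), known as the dioxygenase of the zygote, was low and uneven between embryos. It had 0 to 151 counts in *Upf2*-null embryos and 0 to 56 in controls. The 8 *Upf2*-null embryos had 0.385, 26.7, 0, 1.09, 1.97, 5.3, 19.7 and 14 CPM, against 0 to 10.8 CPM (median 4.01) in controls. *Upf2*-null embryos 2, 7 and 8 lay above every control and the other 5 were at or below 5.3 CPM. It had 0 counts in *Upf2*-null embryo 3 and control embryo 5, which allows up to 0.522 and 0.663 CPM in those libraries (3 counts, for counting error only). The log2 fold change was 0.99 ± 0.85 (SE; interval -0.79 to 2.77; edgeR, adjusted p = 0.764). It was -0.60 by limma voom with quality weights (adjusted p = 0.826), so its direction depended on the method.

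**Figure D2:**
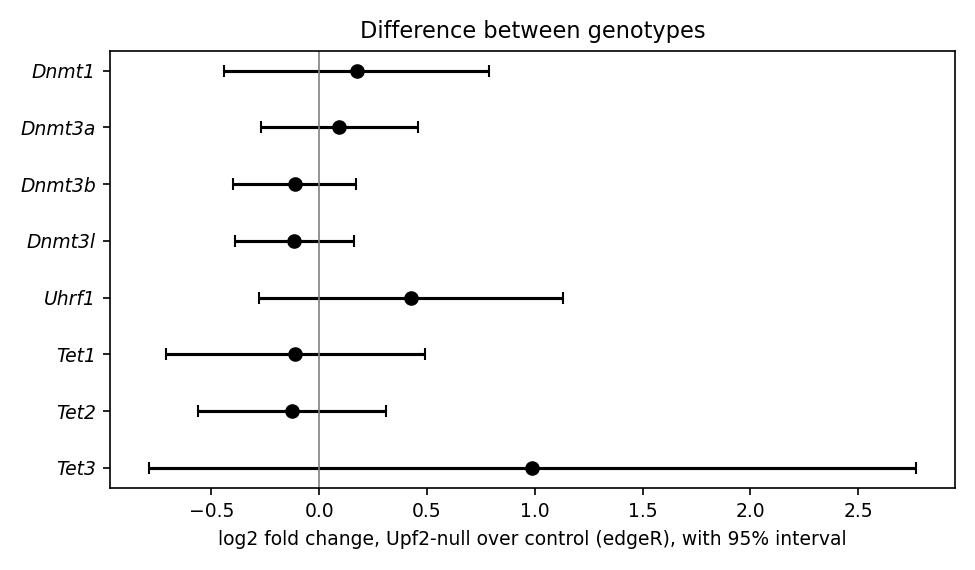
Log2 fold change of each gene, *Upf2*-null over control, from edgeR, with its approximate 95% interval as a horizontal bar and no difference as the grey line. All 8 intervals cross 0, and those of *Uhrf1* (-0.28 to 1.13) and *Tet3* (-0.79 to 2.77) reach beyond a 2-fold change.

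The order of the 8 genes was taken from CPM per kb of exon, since levels of different genes can be compared only per length. *Dnmt3l* stood highest at 47.3 ± 10.8 CPM per kb in *Upf2*-null embryos and 51.4 ± 8.64 in controls (SD, n = 8 and 11). *Dnmt3b* followed at 20.5 ± 4.91 in *Upf2*-null embryos and 22.2 ± 3.75 in controls. Neighbours in the order were then compared by exact two-sided sign-flip permutation tests of their log2 ratio over the embryos, with adjustment over the 7 pairs. The order was that of the control means, so the tests in controls use the values that set it, and *Upf2*-null embryos are the repeat. *Dnmt3l* exceeded *Dnmt3b* in all 8 *Upf2*-null embryos (log2 ratio 1.21, adjusted p = 0.0182) and in all 11 controls (log2 ratio 1.21, adjusted p = 0.00228; the smallest unadjusted p that 11 embryos allow is 0.000977). The cofactor without catalytic activity was thus the most abundant transcript of the set per length in every embryo.

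*Uhrf1* (15.1 and 11.3 CPM per kb in *Upf2*-null embryos and controls) and *Tet2* (9.84 and 10.7) came next. Their mean log2 ratio did not pass as different from 0 (exact adjusted p = 0.529 in *Upf2*-null embryos and 0.755 in controls). *Tet2* exceeded *Tet1* (6.06 and 6.55 CPM per kb) in 8 of 8 *Upf2*-null embryos and 10 of 11 controls (exact adjusted p = 0.0182 and 0.00342). *Dnmt3a* (4.3 and 4.04 CPM per kb) and *Dnmt1* (4.15 and 3.68) did not pass in either genotype with this length (exact adjusted p = 0.703 and 0.41). *Tet3* was lowest at 0.518 and 0.26 CPM per kb, below *Dnmt1* in all 19 embryos (exact adjusted p = 0.0182 and 0.00228). *Tet1* exceeded *Dnmt3a* in controls (10 of 11, exact adjusted p = 0.00547) but the pair did not pass in *Upf2*-null embryos (5 of 8, exact adjusted p = 0.394). With the length of the longest transcript in place of all exons, *Tet2* stood above *Uhrf1* and the pair passed in controls (8 of 11, exact adjusted p = 0.0547) but not in *Upf2*-null embryos (0.547). *Dnmt3a* then exceeded *Dnmt1* in 11 of 11 controls (log2 ratio 0.67, exact adjusted p = 0.00228) and 6 of 8 *Upf2*-null embryos (log2 ratio 0.57, exact adjusted p = 0.109). The difference of *Tet1* and *Dnmt3a* did not pass in controls (exact adjusted p = 0.776), while *Dnmt3l* and *Dnmt3b* stayed first and *Tet3* last.

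**Figure D3:**
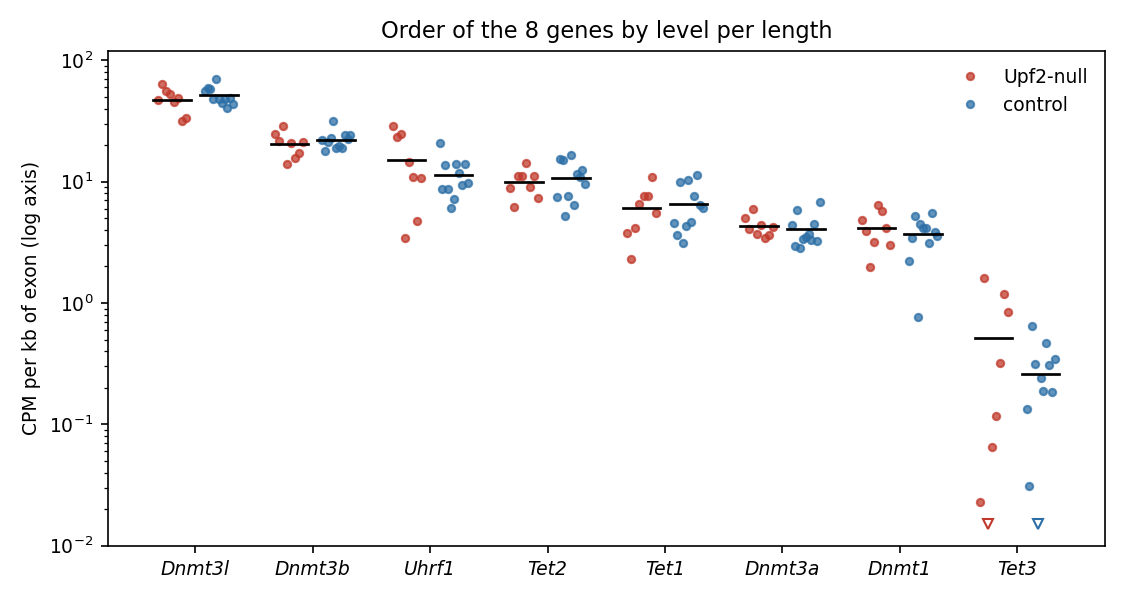
CPM per kb of exon on a log axis for each *Upf2*-null embryo (red, left of each pair) and each control embryo (blue, right), with means as black lines and open triangles at the foot for the 2 embryos with 0 *Tet3* counts. *Dnmt3l* lies highest at means of 47.3 and 51.4 CPM per kb in *Upf2*-null and control embryos, and *Tet3* lowest at 0.518 and 0.26.

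Members varied from embryo to embryo, and whether they did so together was tested over all 19 embryos after removing genotype means from log2 CPM. Of the 28 pairs, 6 had an unadjusted permutation p under 0.05 and 0 passed after adjustment. *Tet1* and *Tet2* had the highest correlation (r = 0.63, permutation p = 0.00454, adjusted p = 0.127; rho = 0.56, permutation p = 0.0147, adjusted p = 0.19), with r = 0.65 in *Upf2*-null embryos and 0.65 in controls, and 0.45 without the 2 embryos farthest from the *Tet1* median. *Dnmt1* and *Tet1* had lower values (r = 0.52, rho = 0.52, adjusted permutation p = 0.191 and 0.19), as did *Dnmt3a* and *Dnmt3b* (r = 0.46, rho = 0.54, adjusted permutation p = 0.191 and 0.19). Within *Upf2*-null embryos and controls r was 0.30 and 0.65 for *Dnmt1* and *Tet1*, and 0.92 and 0.20 for *Dnmt3a* and *Dnmt3b*. Without the 2 embryos farthest from the median of the gene named first, these pairs had 0.38 and 0.32. *Dnmt3l* and *Tet1* had a negative correlation (r = -0.53, rho = -0.49, adjusted permutation p = 0.191 and 0.215), and so did *Uhrf1* and *Tet1* (r = -0.43, adjusted permutation p = 0.271), this pair with -0.72 in *Upf2*-null embryos and 0.01 in controls, a difference that was not tested.

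Which pairs passed depended on single embryos. Each embryo was left out in turn, an alternative in part added after seeing the data, and pairs passed by r without 4 of the 19. Without control embryo 5 there were 4: *Dnmt3a* and *Dnmt3b* (r = 0.60, adjusted permutation p = 0.0356), *Dnmt3b* and *Uhrf1* (0.71, 0.0808), *Tet1* and *Tet2* (0.62, 0.0808) and *Dnmt1* and *Tet1* (0.56, 0.0912). By rho, 0 of these 4 passed (adjusted permutation p from 0.223 to 0.278). In the same order, r within *Upf2*-null embryos and within controls was 0.92 and 0.51, 0.85 and 0.13, 0.65 and 0.62, and 0.30 and 0.73. These differences between genotypes were not tested. Without *Upf2*-null embryo 2 there were 3: *Dnmt3l* and *Tet3* (r = -0.79, adjusted permutation p = 0.0118; rho = -0.71, 0.0678), *Dnmt1* and *Tet1* (0.59, 0.0795) and *Tet1* and *Tet3* (0.60, 0.0795). *Tet1* and *Tet2* passed without control embryo 2 (r = 0.79, adjusted permutation p = 0.0056; rho = 0.75, 0.0202), in which *Tet2* was high and *Tet1* low (257 and 56.6 CPM), and without control embryo 9 (r = 0.65, 0.098). *Upf2*-null embryo 2 had the lowest *Tet1* (35.6 CPM) and the highest *Tet3* (26.7 CPM) of all 19. Control embryo 5 had the highest *Dnmt3b* (160 CPM) and *Dnmt3l* (211 CPM) of all 19 and the lowest *Uhrf1* of the controls (25.9 CPM).

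The members were then set against measures of the libraries. Against the total count and the number of genes detected, 0 of 16 relations passed by r and 1 by rho: *Uhrf1* was higher in deeper libraries (rho = 0.75, permutation p = 5e-04, adjusted p = 0.008; r = 0.61, adjusted p = 0.103; r = 0.55 without the 2 embryos farthest from the median depth). Libraries also differed in how log2 CPM depended on the GC content and the length of transcripts. For each embryo a slope on GC, per 10 percentage points, and on length, per doubling, was fitted over 9219 genes without the members, a measure chosen after seeing the data. The GC slope ran from -0.621 to 0.313 in *Upf2*-null embryos and from -0.397 to 0.361 in controls. No difference of its means, -0.0492 and 0.0358, was found (exact permutation test, p = 0.533). The GC slope also rose with the total count (r = 0.68, rho = 0.69, permutation p = 0.004 and 0.00396 after adjustment over 3 relations).

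*Uhrf1* followed the GC slope closely (r = 0.82, rho = 0.83, adjusted permutation p = 0.00104 and 0.00072 over 16 relations), with 0.90 in *Upf2*-null embryos, 0.68 in controls and 0.70 without the 2 farthest embryos. Of the 9248 genes with a mean of at least 10 CPM, 3.17% had an r at least as high. The same embryos stood out on both measures: *Upf2*-null embryos 1, 2 and 3, above every control in *Uhrf1*, had the highest GC slopes of their genotype (0.268, 0.214 and 0.313), and *Upf2*-null embryos 4 and 7, below every control in *Uhrf1*, had the lowest (-0.621 and -0.417). *Uhrf1* also followed the length slope (r = 0.71, rho = 0.81, adjusted permutation p = 8e-04 and 0.00064). The GC and length slopes were themselves correlated (r = 0.69, rho = 0.74, adjusted permutation p = 0.00249 and 0.00102), so these relations of *Uhrf1* are not independent. Its own transcript has 53.7% GC, against a median of 49.6% over the genes used, and *Dnmt1*, with 54% GC, did not follow the slope (r = -0.15, adjusted permutation p = 0.782). With the GC slope as a covariate the log2 fold change of *Uhrf1* was 0.41 ± 0.22 (SE), with an edgeR adjusted p of 0.456.

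Of the other members, *Tet2* fell with the GC slope (r = -0.53, rho = -0.59, adjusted permutation p = 0.0642 and 0.0302) and *Dnmt3b* rose with it (r = 0.55, rho = 0.56, adjusted permutation p = 0.0888 and 0.0742), although r for *Dnmt3b* was 0.36 without the 2 farthest embryos and 0.16 among controls. Of all 9248 genes 16.8% had an r as low as that of *Tet2*, and 18.7% one as high as that of *Dnmt3b*. *Dnmt3a* followed the length slope (r = 0.59, rho = 0.64, adjusted permutation p = 0.0642 and 0.0302), where 7.5% of genes had an r as high. Relations of these sizes were thus common among all genes. *Tet1* and *Tet2* transcripts are the poorest in GC of the set, at 43.7% and 45.4%. With the linear part of both slopes removed, the correlation of *Tet1* and *Tet2* was 0.38 (adjusted permutation p = 0.387) and that of *Uhrf1* and *Tet1* was -0.49 (adjusted permutation p = 0.186). The pair *Dnmt3l* and *Uhrf1* had 0.64 in its place (adjusted permutation p = 0.157; rho = 0.67, adjusted permutation p = 0.0847), against 0.26 before. By rho *Dnmt3a* and *Dnmt3b* also passed then (rho = 0.61, adjusted permutation p = 0.0847; r = 0.52, 0.157), so that 2 pairs passed by rho and 0 by r. Whether the slopes reflect library preparation or the embryos' RNA was not tested.

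**Figure D4:**
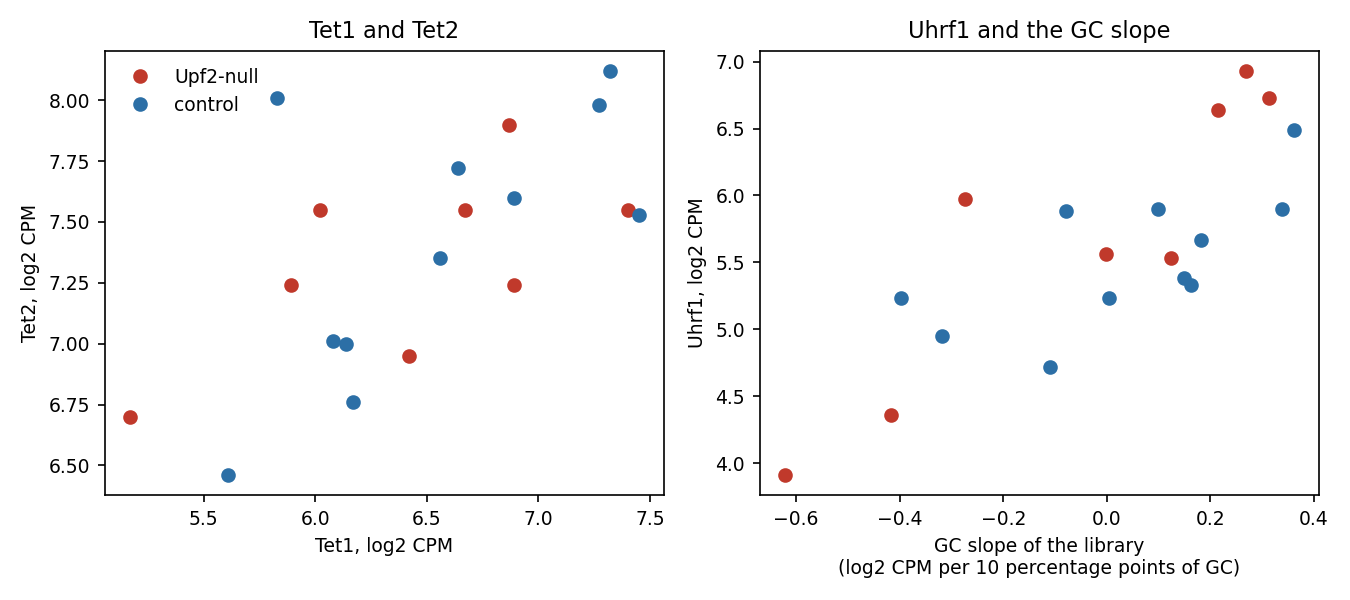
Left, log2 CPM of *Tet2* against *Tet1*, and right, log2 CPM of *Uhrf1* against the GC slope of the library (log2 CPM per 10 percentage points of transcript GC), 1 point per embryo, *Upf2*-null in red and control in blue. The correlation of *Tet1* and *Tet2* is 0.63 with genotype means removed (adjusted permutation p = 0.127), and *Uhrf1* rises with the GC slope (r = 0.82).

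The genes most like each member over the embryos were taken from the 9248 genes with a mean of at least 10 CPM, and as the highest of many they carry no test. *Uhrf1* was most like *Sh3bp1* (r = 0.91, rho = 0.88) and *Pink1* (0.90, 0.90), a mitochondrial kinase gene. Both have 59% GC, and the 50 genes most like *Uhrf1* had a median of 56.5% GC. Among the genes most like *Tet1* was *Herc2* (r = 0.86, rho = 0.86), and *Tet2* was most like *Huwe1* (0.86, 0.90) and *Kmt2c* (0.83, 0.87). *Herc2* and *Huwe1* encode HECT-type ubiquitin ligases and *Kmt2c* a histone methyltransferase. These 3 transcripts are 14579 to 15261 bases long, against a median of 2924. The 50 genes most like *Tet1* and *Tet2* had lower median lengths, of 4091 and 4421 bases, and those of the other members 2496 to 4541. *Tet3*, itself below 10 CPM on average, was most like *Rcor1* (0.88, 0.89), the gene of a corepressor, and *Ppp1r9a* (0.81, 0.79).

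*Dnmt3l* was most like *Ubap1* (r = 0.83, rho = 0.84) and *Mtrr* (0.78, 0.76), the reductase that keeps methionine synthase active and so belongs to methyl donor supply. *Dnmt3b* was most like *Plaa* (0.80, 0.69) and *Rbm6* (0.80, 0.73), and *Dnmt3a* most like *Apex2* (0.74, 0.65), an abasic-site endonuclease gene, and *Fam219b* (0.70, 0.68). *Dnmt1* was most like *Tnfaip8* (0.87, 0.68) and *Xlr3a* (0.83, 0.70), but these were 0.62 and 0.49 without the 2 embryos farthest from the *Dnmt1* median. No member was among the nearest genes of another.

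Genes that work with the members were counted in 5 lists, and 0 of their 57 tested genes passed the threshold (edgeR), also by DESeq2 and limma voom, beside the same 0.193% of all genes. Over all genes 52.3% were below 0, and at an unadjusted p under 0.05 5.15% were higher and 7.38% lower. Of 10 maintenance partners, 2 were above and 8 below 0 on the log2 scale (median -0.09, against -0.02 over all genes) and 1 had an unadjusted p under 0.05, the deacetylase gene *Hdac1* (279 ± 23.3 CPM in *Upf2*-null embryos, 317 ± 46.6 CPM in controls; edgeR, adjusted p = 0.333). *Uhrf2*, a relative of *Uhrf1*, had 29.7 ± 12.4 CPM in *Upf2*-null embryos, against 18.8 ± 11.8 CPM in controls (adjusted p = 0.519), and *Hdac2* 305 ± 25.6 and 333 ± 39.1 CPM (0.543). *Dppa3*, which shields the maternal genome and restrains UHRF1, was high at medians of 294 and 282 CPM in *Upf2*-null embryos and controls.

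Of 12 targeting and histone partners, 3 were above and 9 below 0 (median -0.19) and 0 had an unadjusted p under 0.05. The lowest p-values were those of *Ehmt1*, a histone H3K9 methyltransferase gene (40.3 ± 9.74 CPM in *Upf2*-null embryos, against 53.4 ± 17 CPM in controls, edgeR adjusted p = 0.469), *Kdm2b* (34.2 ± 9.37 and 41.2 ± 10.2 CPM, 0.683) and *Trim28* (249 ± 22.6 and 270 ± 41.8 CPM, 0.709). Of 8 methyl-CpG readers, 5 were above and 3 below 0 (median 0.14) and again 0 had an unadjusted p under 0.05. *Mbd4*, a glycosylase that binds methylated DNA, had 94.6 ± 34.4 CPM in *Upf2*-null embryos, against 68.8 ± 20.6 CPM in controls (edgeR, adjusted p = 0.412). *Zbtb4* was near the detection limit, with 29 counts in the 8 *Upf2*-null embryos, 21 of them in 1 embryo and 8 without it, and 13 in the 11 controls.

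Among the demethylation partners 13 of 14 were tested, 3 above and 10 below 0 (median -0.17), with 1 higher and 3 lower at an unadjusted p under 0.05. *Idh2*, a mitochondrial isocitrate dehydrogenase that makes the 2-oxoglutarate TET enzymes use, had 230 ± 45.1 CPM in *Upf2*-null embryos, against 278 ± 36.7 CPM in controls (edgeR, adjusted p = 0.276). *Ogt*, the O-GlcNAc transferase that binds TET proteins, had 210 ± 49.5 CPM in *Upf2*-null embryos, against 264 ± 50.6 CPM in controls (edgeR, adjusted p = 0.320). *Neil2*, a glycosylase gene, had 22 counts in the *Upf2*-null group, 18 of them in 1 embryo, and 0 in all controls (adjusted p = 0.262).

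Of 14 methyl donor genes, 7 were above and 7 below 0 (median -0.02), with 1 higher and 1 lower at an unadjusted p under 0.05. *Mat2a*, which makes S-adenosylmethionine, had 424 ± 53.3 CPM in *Upf2*-null embryos, against 493 ± 71.1 CPM in controls (edgeR, adjusted p = 0.295), and *Bhmt* had 205 ± 13.3 and 222 ± 26.1 CPM (0.616). Germline genes whose promoters are silenced by methylation, 15 of 16 tested, had 3 above and 12 below 0 (median -0.34, against -0.02 over all genes). They summed to 560 to 932 CPM in *Upf2*-null embryos, against 628 to 1192 CPM in controls. Of them 0 passed (edgeR), with 1 higher and 1 lower at an unadjusted p under 0.05. S phase genes, 0 of 23 called (1 at an unadjusted p under 0.05), had 7 above and 16 below 0 (median -0.15). They summed to 3867 to 5884 CPM in *Upf2*-null embryos, against 3975 to 6580 CPM in controls.

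Gene counts do not separate transcripts. GENCODE M21 annotates 2 transcripts of *Dnmt3a* and 1 of *Tet1* as NMD targets and 0 of the other members. The merged transcript models deposited with the counts, which carry no values per embryo, hold unannotated models for 7 members, from 3 at *Dnmt3a* to 9 at *Tet2*, and 0 for *Tet3*. *Dnmt3b* lies beside its near copy *Dnmt3c*, and 1 merged model joins both genes, so reads could be split between them. *Dnmt3c* itself held 55 counts summed over 8 *Upf2*-null embryos (36 without the highest) and 255 summed over 11 controls (131 without the highest, which had 124), against sums of 4252 and 6161 for *Dnmt3b*. Exons of *Dnmt3a*, *Dnmt3l* and *Tet2* overlap genes of the opposite strand by 133, 67 and 43 bases. The strand setting of the counting is not given in the sources used here.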

How the data were processed

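The authors trimmed adapters, used STAR 2.5.2a for the alignment of paired reads to GRCm38 and SAMtools against duplicates, and the deposited table of raw counts, by Ensembl gene, came from featureCounts. The deposited scaled table holds signal values, each a count times 1 factor per embryo (100% whole reads within 0.01). The deposited transcript models (HISAT2, StringTie) give exon positions only. Genotypes came from the labels. Embryos are separate animals, and no batch or litter is given. No value column was left without a sample.

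A gene entered the test if any embryo, at least 1, held 10 counts or more. The quasi-likelihood fit of edgeR 4.0.16 was robust, used TMM and had no covariate, and calls were made at an adjusted p under 0.1. The fit was checked on simulated data. Standard errors are the fold change over the root of F. CPM are TMM-normalized, and log2 CPM has a prior count of 2. Level ratios add 0.01 CPM per kb. Correlations were tested with 100000 permutations within genotype, and genotype differences of the slopes over 75582 arrangements. DESeq2 1.42.0, limma 3.58.1, sva 3.50.0, and R 4.3.3 were used, with matplotlib 3.10.9, pandas 2.3.3, scipy 1.17.1 and numpy 2.4.6 under Python 3.11.15. Symbols and exon lengths came from GENCODE M21 and promoters from RefSeq. Embryo pairs of a genotype differed by more than counting noise (chi-square per gene at least 10.5).

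The members and lists were chosen with earlier results of these data known. Genes named are the members, the 2 genes most like each, the 3 lowest p-values of each partner list, and *Dppa3*, *Nanog*, *Gata6* and *Cdx2* for their level. *Upf2*, *Fshr*, *Star* and the neighbours of members were added afterwards. Some genes that this rule names are not reported here. Alternatives were 39 listed at the start (tools, normalizations, filters, threshold, block, scaled table, a surrogate variable, each embryo left out, lengths, prior count) and 5 added after seeing the data (recovered reads, without control embryos 2 and 4, GC slope as a covariate, slopes removed, pairs without each embryo).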

Additional observations from a re-analysis of the deposited data

How the results depend on the processing

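In the replicate block fit, in the tools, normalizations, filters and covariates run, and without each embryo, 0 of 8 members and 0 partner genes were called, and adjusted p-values of members ran from 0.456 to 1. Of 248 fold changes of members under alternatives 245 kept their sign; the others were *Dnmt3a* (-0.005 without control embryos 2 and 4), *Tet1* (0.011 without *Upf2*-null embryo 2, within -0.287 to 0.011 over the embryos left out) and *Tet3* (-0.604 by limma voom), and the cause was not tested. The number of genes called over all genes moved more: the 33 (30 higher, 3 lower) became 176 by DESeq2 (102 and 74), 114 by limma voom (90 and 24), 133 with the GC slope as a covariate (78 and 55), 17 with upper-quartile normalization (15 higher), 11 at an adjusted p under 0.05 (11 higher, 0 lower), and 7 lower with 1 surrogate variable. Without each embryo it ran from 14 to 43 (14 to 36 higher, 0 to 7 lower), and it fell more than 1.5-fold when any of *Upf2*-null embryos 4 to 8, or of controls 1, 3, 7 and 8, was left out.

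With replicate numbers as a block 0 genes were called (0 higher, 0 lower). No sign of a pairing by number was seen: over 8 same-numbered pairs the deviations correlated from -0.137 to 0.0687, and 0 *Upf2*-null embryos correlated best with their own number. Whether same-numbered embryos shared a litter or a batch cannot be told from these values, as neither is given.

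By r, the pairs of members past the threshold were 0 with a prior count of 0.5 and with the slopes removed (2 by rho with the slopes removed), and 0 to 4 over the embryos left out: 4 with control embryo 5 left out, 3 with *Upf2*-null embryo 2 left out, and 1 with control 2 or control 9 left out. Fold changes with ERCC spike-ins were not run, as the tables used here list none. *Tet3* had 0 to 151 counts per embryo, and its correlation with the total count did not pass (r = -0.11, rho = -0.07, adjusted permutation p = 0.729 and 0.913).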
